A study of Mus musculus with 285 samples.

Results

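The genes described here are 37 DNA damage repair genes among the 19962 genes of a whole-transcriptome probe panel. They were chosen by name, not by their levels, though with earlier results of these data known. They were read in neuron segments of 5 brain regions and 5 treatments. By pathway they comprised 11 base excision repair genes, 1 direct reversal gene, 7 nucleotide excision repair genes, 2 mismatch repair genes, 12 genes of double-strand break repair and 4 checkpoint kinases. The animals were 15 female C57BL/6J mice, 3 in each group, with the whole brain irradiated by FLASH 1 × 10 Gy, FLASH 3 × 10 Gy, CONV 1 × 10 Gy or CONV 3 × 10 Gy, or left unirradiated (CTRL). FLASH is delivery at an ultra-high dose rate, here in a single pulse per fraction, and CONV is the same dose at a conventional rate (0.09 Gy/s). In the 3 × 10 Gy groups the fractions were 48 h apart. The series' design text gives the mice as 9 weeks old and the study's methods as 10 weeks. The tissue dates from 24 h after irradiation ended. Neurons were collected from fixed sections with GeoMx digital spatial profiling, in which segments staining for NeuN, a neuronal nuclear protein, release their bound probe tags for sequencing. Each mouse gave segments of the dentate gyrus (DG), CA3, CA1, the stratum oriens (SO) and, from 2 areas, the cortex. A letter (A, B or C) after its group names each mouse.

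Cells repair DNA by several routes with largely separate proteins. Base excision repair replaces single damaged bases and seals single-strand breaks, nucleotide excision repair cuts out bulky lesions, mismatch repair corrects copying errors, and double-strand breaks are rejoined directly or copied from a sister molecule. Checkpoint kinases signal the damage and halt the cell cycle. Mature neurons do not divide, and they are known to depend on base excision and single-strand break repair and on end joining more than on routes coupled to replication.

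Of 90 neuron libraries, 87 were kept, with 157915 to 2022070 counts (median 714453). Those missing came from SO (FLASH 3 × 10 Gy mouse B and CONV 1 × 10 Gy mouse C) and from 1 of 2 cortical areas (CONV 3 × 10 Gy mouse B). The 209 negative probes have no target, and the background share is their mean count as a percent of the mean gene count in that library. It spanned 36.1% to 79.0% (median 56.7%), so much of any low value is background. In hippocampal sums the FLASH mice averaged 50.9% at 1 × 10 Gy and 53.0% at 3 × 10 Gy. The CONV mice averaged 56.1% at 1 × 10 Gy and 57.9% at 3 × 10 Gy, and CTRL mice 60.4% (n = 3 each). The 5 slides did not hold every group: FLASH 1 × 10 Gy and CTRL shared only slide 4, with 1 mouse of each, and slides 3 and 5 held no CTRL mouse. Libraries also fell on 3 plates, and plate was not a term in any fit. On slide 4 CTRL mouse C was on plate 2, CONV 1 × 10 Gy mouse A on plate 3, and FLASH 1 × 10 Gy mouse A on both. On slide 2 the hippocampal libraries of CONV 3 × 10 Gy mouse B were on plate 2, and those of the FLASH and CTRL mice on plate 1. The part of plate in differences within slides was not tested. All 10 neuron marker genes checked passed the test filter, as did all 8 oligodendrocyte and 6 of 8 astrocyte markers. Of the other lists, 7 of 8 microglial, 4 of 8 endothelial and 8 of 12 dividing-cell markers did not pass it.

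The repair genes lay close to the background as a group. A member counted as detected in a library when it exceeded the negative-probe limit, set at 2 geometric standard deviations over the geometric mean of the negative probes. By that limit 7 of the 37 members were detected in at least 50% of the 87 neuron libraries (18.9%, against 24.3% of all panel genes), and 6 were detected in none (16.2%, against 16.9%). The median member stood at 1.35 times the negative-probe mean, and the median panel gene at 1.34 times. The test filter asked for a count over this limit in 5% of the kept libraries, all segment types together, which 17 members passed (45.9%, against 50.2% of the panel).

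In base excision repair, *Parp1*, which binds DNA breaks and builds poly(ADP-ribose) chains, was detected in 81 of 87 libraries. *Polb*, the polymerase that fills the gap left by an excised base, was detected in 80, and *Pcna*, the sliding clamp of DNA polymerases, in 59. The scaffold *Xrcc1* (22), the oxidised-base glycosylase *Neil1* (16), the abasic site endonuclease *Apex1* (15) and the ligase *Lig1* (14) followed. These 7 of 11 were tested. *Ogg1*, which removes oxidised guanine, was detected in 5 and *Ung*, which removes uracil, in 2, while the ligase *Lig3* and the flap endonuclease *Fen1* were never above the limit. The direct reversal gene *Mgmt*, whose protein takes alkyl groups off guanine, was detected in 24 libraries.

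In nucleotide excision repair the tested members were *Ddb1* (63 libraries), a subunit of the ligase complex that marks damaged chromatin, *Ercc1* (39), part of an endonuclease that excises the lesion, and *Xpa* (16), which holds the excision complex at the damage. The sensors *Ddb2* (11) and *Xpc* (3) and the helicases *Ercc2* (10) and *Ercc3* (7) were not tested. Both mismatch repair genes were tested: *Msh6* (32), which recognises the mismatch, and *Pms2* (14), which nicks the strand to be replaced.

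Of the double-strand break genes 4 of 12 were tested. These were *Trp53bp1* (67 libraries), which coats chromatin around breaks, *Rad50* (52), of the complex that tethers broken ends, *Prkdc* (45), the catalytic subunit of DNA-dependent protein kinase, and *Xrcc5* (15), a subunit of the Ku ring that binds the ends. The other Ku subunit *Xrcc6* was detected in 10 libraries and the recombination gene *Rad52* in 11. The recombination genes *Brca2* and *Brca1*, the crosslink repair gene *Fancd2*, the partner of *Rad50* named *Nbn*, and the end-joining pair *Xrcc4* and *Lig4* were detected in 0 to 2 libraries. No checkpoint kinase was tested: *Atm* was detected in 3 libraries, *Chek2* in 2, *Atr* in 1 and *Chek1* in none. These 20 members were left out of the tests for their low detection.

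**Figure D1:**
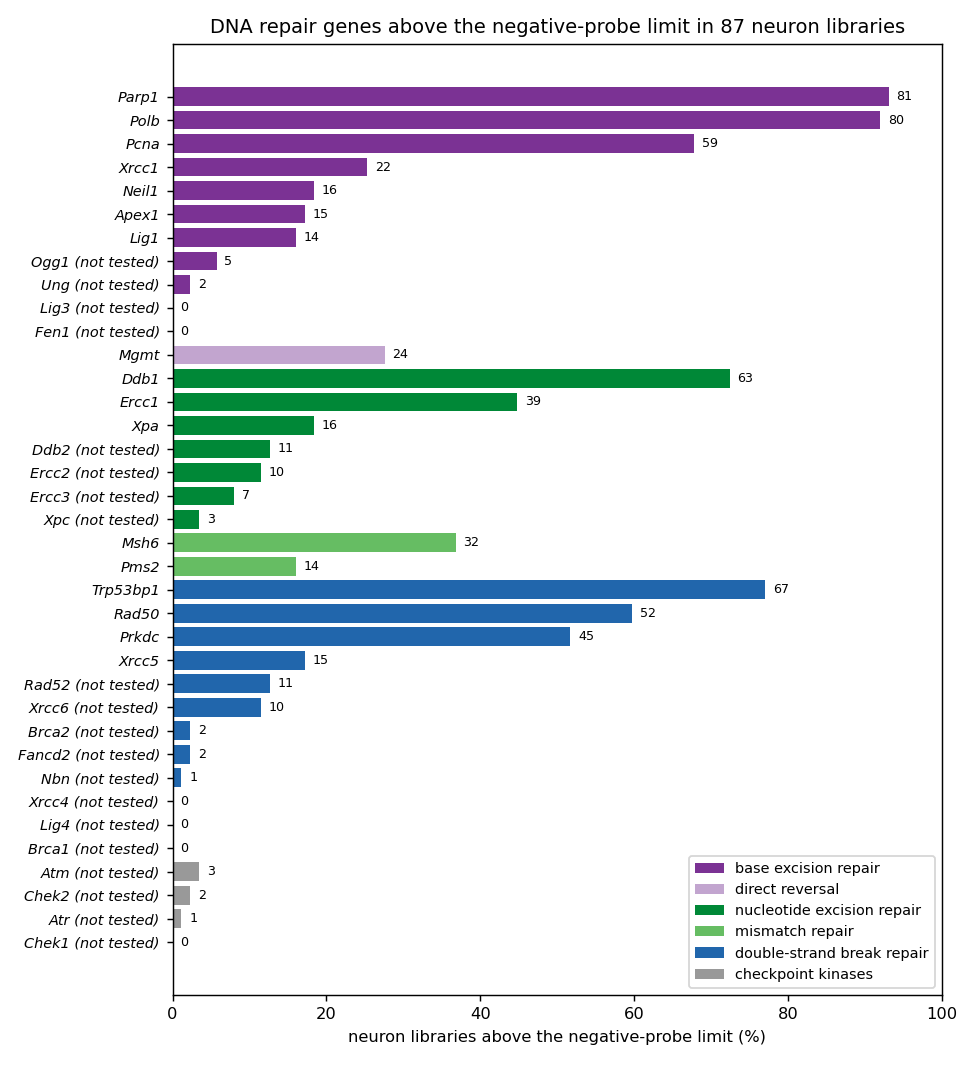
Percent of the 87 neuron libraries in which each of the 37 repair genes exceeded the negative-probe limit, coloured by pathway, with the number of libraries at the end of each bar. *Parp1* and *Polb* stood at 81 and 80 libraries, and all 4 checkpoint kinases at 3 or fewer.

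Detection differed between regions. A DG library had a median of 13 members above the limit (2 to 25), a cortical library 9 (2 to 16), and libraries of CA3, CA1 and SO had 7 each. The panel as a whole differed too: the median share of all its genes above the limit was 44.1% in DG and 29.3% in the cortex. It was 26.9% in CA3, 22.2% in CA1 and 17.5% in SO. The background share was lowest in DG (median 45.8%) and 56.6% to 61.4% in the other regions, and its part in these counts was not tested.

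Repair transcripts of irradiated neurons were compared with those of CTRL neurons to see which pathways moved 1 day after whole-brain irradiation ended. Counts were summed per mouse over the hippocampal subregions or over the cortical areas and tested with edgeR, with slide as a factor and p-values adjusted over all 10020 tested genes (adjusted p under 0.05 was called). Subregions were not weighted in the sums, so each entered by its depth. DG gave 217992 of the 1.43579e+06 hippocampal counts in CONV 3 × 10 Gy mouse B. In CONV 3 × 10 Gy mouse C it gave 1.01805e+06 of 2.09583e+06. The part of subregion make-up in differences between the hippocampal sums was not tested. Each difference is a log2 change with its standard error (SE), and each level is in CPM, the count relative to the library's TMM-scaled total. The p-values measure the spread between these mice.

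In the hippocampus after FLASH 1 × 10 Gy, 2 of 17 members were called, 1 higher and 1 lower. That share, 11.8%, lay next to the 11.5% of all tested genes called in the same comparison. The members' median change was -0.11, against 0.00 for all tested genes. The other groups gave 0 of 17 calls each against CTRL. For FLASH 3 × 10 Gy 0.00998% of all genes were called and 1 member had an unadjusted p under 0.05, and for both CONV doses 0% of genes were called and 0 members had such a p (316 genes at 1 × 10 Gy and 371 at 3 × 10 Gy). With all 12 irradiated mice against the 3 CTRL mice edgeR again called 0 members and 0% of all genes, and 3 members had an unadjusted p under 0.05, as did 893 of all tested genes.

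**Figure D2:**
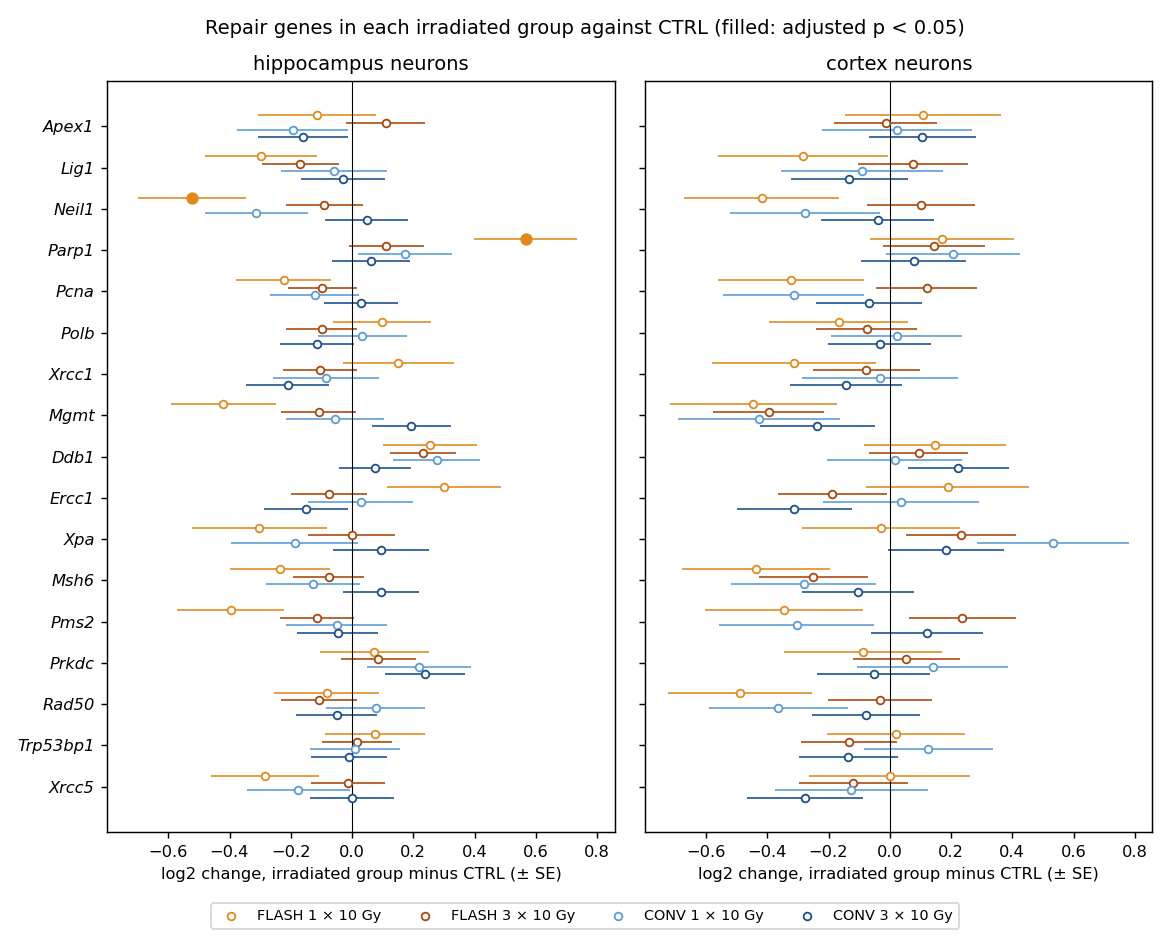
Log2 change of the 17 tested repair genes in each irradiated group minus CTRL, with its SE, in hippocampal (left) and cortical (right) neurons of 3 mice a group. Filled points passed adjusted p 0.05: *Parp1* at 0.57 and *Neil1* at -0.52, both after FLASH 1 × 10 Gy in the hippocampus.

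*Parp1* was the base excision gene that rose. Its hippocampal level was 128, 106 and 106 CPM in FLASH 1 × 10 Gy mice A, B and C, 105, 108 and 113 in FLASH 3 × 10 Gy mice, 81.4, 93.2 and 107 in CONV 1 × 10 Gy mice, 101, 111 and 102 in CONV 3 × 10 Gy mice, and 102, 102 and 75.7 in CTRL mice. The FLASH 1 × 10 Gy mice were all above the CTRL mice, of which mouse C stood apart from the other 2. How many of all genes separate in this way is not given here. The fitted change was 0.57 (SE 0.17, adjusted p = 0.0258, edgeR). The higher FLASH dose gave 0.11, and the CONV doses 0.17 (1 × 10 Gy) and 0.06 (3 × 10 Gy), none called. On slide 4, which alone holds both groups, FLASH 1 × 10 Gy mouse A exceeded CTRL mouse C by 0.75.

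The *Parp1* call depended on few animals. Without CTRL mouse C the change was 0.41 (adjusted p = 0.594), without FLASH 1 × 10 Gy mouse A 0.27 (adjusted p = 0.507) and without CONV 1 × 10 Gy mouse C 0.64 (adjusted p = 0.0541). With no slide term it was 0.27 (adjusted p = 0.699), and with negative probes subtracted 0.57 (adjusted p = 0.104). DESeq2 gave 0.55 (adjusted p = 0.0528). The call held in 5 of 10 alternatives. The summed level of the 10 neuron markers was 2494 to 2553 CPM in hippocampal sums of FLASH 1 × 10 Gy mice and 1360 to 2564 in those of CTRL mice. Of these markers 8 of 10 were called higher in the same comparison (median change 0.95). None of the tested astrocyte, oligodendrocyte, microglial, endothelial or dividing-cell markers was higher, and 1 of 4 endothelial markers was lower. Their part in the *Parp1* result was not tested. With the background share as a covariate the *Parp1* change was 0.66 (SE 0.22, adjusted p = 0.573). In such mixed segments fewer cells of a type and less RNA per cell cannot be told apart.

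*Neil1* fell in the same comparison. It measured 43.4, 39.7 and 37.9 CPM in FLASH 1 × 10 Gy mice A, B and C, 35.4, 42.2 and 44.0 in FLASH 3 × 10 Gy mice, 44.9, 47.6 and 32.3 in CONV 1 × 10 Gy mice, 45.2, 49.2 and 34.6 in CONV 3 × 10 Gy mice, and 40.2, 45.8 and 59.9 in CTRL mice. The ranges of the groups overlapped, with CTRL mouse C the highest of all 15. The fitted change after FLASH 1 × 10 Gy was -0.52 (SE 0.18, adjusted p = 0.0476, edgeR), and -0.24 with no slide term (adjusted p = 0.699). With the background share as a covariate it was -0.20 (adjusted p = 0.940), and with negative probes subtracted -1.29 (adjusted p = 0.0852). The call held in 2 of 8 alternatives. In units of the negative-probe mean *Neil1* averaged 1.58 in FLASH 1 × 10 Gy and 1.61 in CTRL mice. On slide 4 the background share was 52.8% in FLASH 1 × 10 Gy mouse A and 67.8% in CTRL mouse C. The call was lost when any of 11 of the 15 mice was left out (adjusted p up to 0.588). It was kept only without CTRL mouse A, FLASH 3 × 10 Gy mouse B, CONV 3 × 10 Gy mouse A or CONV 3 × 10 Gy mouse C.

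**Figure D3:**
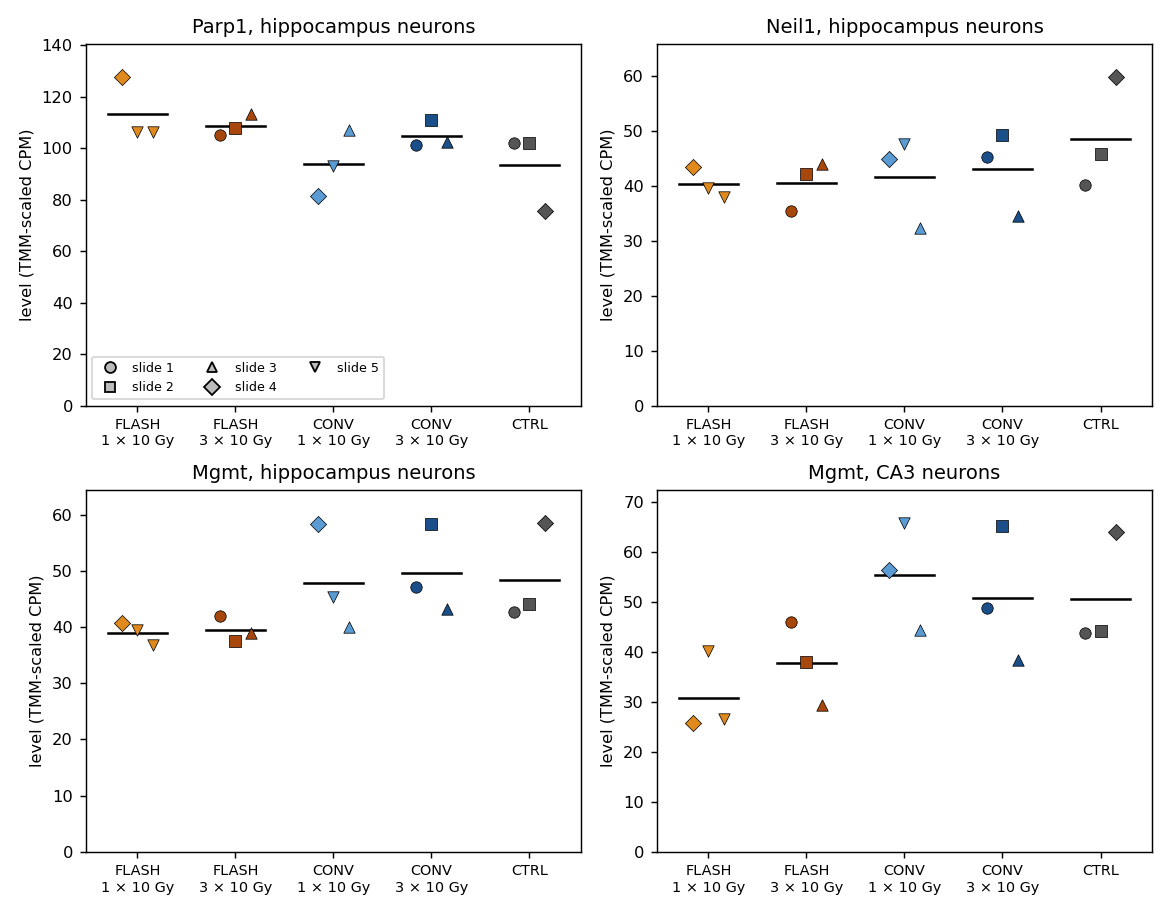
TMM-scaled CPM of *Parp1*, *Neil1* and *Mgmt* in hippocampal sums and of *Mgmt* in CA3 libraries, 1 point per mouse with its slide as the symbol and the group mean as a line (n = 3 each). CTRL mouse C (slide 4) was the lowest mouse for *Parp1* at 75.7 CPM, and the 6 FLASH mice lay at 36.7 to 41.9 CPM for hippocampal *Mgmt*.

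The remaining base excision members were not called in any hippocampal comparison with CTRL. After FLASH 1 × 10 Gy their changes were -0.30 for *Lig1*, -0.22 for *Pcna*, -0.11 for *Apex1*, 0.10 for *Polb* and 0.15 for *Xrcc1*. *Polb*, among the most often detected members, lay between 78.3 and 103 CPM in all 15 mice, with 82.4 to 96.9 in FLASH 1 × 10 Gy mice and 82.0 to 89.5 in CTRL mice. *Pcna*, which also marks dividing cells, lay between 52.7 and 65.0 CPM in FLASH 1 × 10 Gy mice and between 55.2 and 75.3 in CTRL mice.

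No nucleotide excision gene was called against CTRL in the hippocampus. *Ddb1* had the smallest p of this class with all irradiated mice pooled. It measured 68.7, 58.6 and 57.1 CPM in FLASH 1 × 10 Gy mice A, B and C, 64.2, 64.1 and 64.2 in FLASH 3 × 10 Gy mice, 69.9, 59.6 and 63.7 in CONV 1 × 10 Gy mice, 61.3, 52.0 and 58.1 in CONV 3 × 10 Gy mice, and 58.9, 51.3 and 55.8 in CTRL mice. Most irradiated mice stood above the CTRL mean, but the ranges overlapped. The difference was 0.21 (SE 0.10, unadjusted p = 0.0342, adjusted p = 0.542, edgeR), and an exact permutation test of the 12 against the 3 mice, which does not take account of the slide, gave a 2-sided p of 0.0549 (0.231 adjusted over 14 such tests). For cortical *Ddb1* that permutation test gave 0.0242 (0.169 adjusted). The 14 tests took only members called in a treatment comparison or with the smallest p of a class over all irradiated mice. The adjustment does not cover that choice. After FLASH 1 × 10 Gy the fitted values were 0.30 for *Ercc1* and -0.30 for *Xpa*, neither called.

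The mismatch repair genes had negative changes after FLASH 1 × 10 Gy in the hippocampus, -0.40 for *Pms2* (adjusted p = 0.126, edgeR) and -0.24 for *Msh6* (adjusted p = 0.341), which did not pass. *Pms2* lay at 35.6 to 39.7 CPM in FLASH 1 × 10 Gy mice and 39.3 to 50.8 in CTRL mice. *Msh6* lay at 48.2 to 50.8 CPM in FLASH 1 × 10 Gy mice and 47.2 to 62.6 in CTRL mice. Both ranges overlapped.

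No double-strand break gene was called in the hippocampus. After FLASH 1 × 10 Gy the fitted changes were 0.07 for *Trp53bp1*, 0.07 for *Prkdc*, -0.08 for *Rad50* and -0.28 for *Xrcc5*. *Trp53bp1*, the most often detected of them, measured 74.7, 82.4 and 79.2 CPM in FLASH 1 × 10 Gy mice, 78.1, 84.1 and 78.4 in FLASH 3 × 10 Gy mice, 84.6, 69.4 and 85.8 in CONV 1 × 10 Gy mice, 76.2, 68.6 and 92.7 in CONV 3 × 10 Gy mice, and 78.0, 76.9 and 76.2 in CTRL mice. The groups overlapped, and its fitted changes from CTRL lay between -0.01 and 0.07. *Prkdc* had the smallest p of this class with all irradiated mice pooled (0.15, SE 0.11, adjusted p = 0.674). Without CTRL mouse C that value was -0.06.

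In the cortex no member was called in any of the 5 comparisons with CTRL, where 0.00998% of all genes were called in at least 1. The members' median change was -0.17 after FLASH 1 × 10 Gy, with 1 member at an unadjusted p under 0.05, against -0.02 for all tested genes. With all irradiated mice pooled it was -0.07, against -0.01. *Mgmt* had the smallest p among members over all irradiated mice. It measured 40.04, 38.7 and 49.3 CPM in FLASH 1 × 10 Gy mice A, B and C, 47.9, 31.8 and 40.5 in FLASH 3 × 10 Gy mice, 36.7, 46.4 and 35.0 in CONV 1 × 10 Gy mice, 45.9, 49.9 and 37.8 in CONV 3 × 10 Gy mice, and 48.5, 62.5 and 52.3 in CTRL mice. Of the 12 irradiated mice 10 lay below every CTRL mouse. The difference was -0.38 (SE 0.17, adjusted p = 0.587, edgeR), and the exact permutation test, again without the slide, gave a 2-sided p of 0.0110 before and 0.154 after adjustment over 14 tests. It did not pass in 14 of 15 fits without 1 mouse. Without CTRL mouse B it was -0.21 (adjusted p = 1.000), and without CTRL mouse A it was -0.56 and passed (adjusted p = 0.0370). With the background share as a covariate it was -0.21 (adjusted p = 0.952). The other classes had their smallest p in *Parp1* (0.15), *Xpa* (0.23), *Msh6* (-0.27) and *Rad50* (-0.24), with adjusted p between 0.647 and 0.812. The signs for *Parp1* and *Msh6* turned without CTRL mouse C, to -0.09 and 0.0048.

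Within single subregions no member was called against CTRL either. Genes called in at least 1 of the 5 comparisons with CTRL made up 5.78% of all tested genes in DG, 3.56% in CA3, 0.279% in CA1 and 0.389% in SO, against 0 of 17 members in each. The nearest was *Parp1* in DG after FLASH 1 × 10 Gy, with a change of 0.62 (SE 0.21, adjusted p = 0.0580, edgeR). At an unadjusted p under 0.05 a comparison held 0 to 4 members in DG, 0 to 1 in CA3, 0 to 2 in CA1 and 0 in SO. The effect of irradiation in the hippocampus was also tested against that in the cortex, for 8 comparisons. None of the 17 members was called (0 to 2 per comparison at an unadjusted p under 0.05), and 0.02% of all genes were called in at least 1.

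FLASH and CONV were compared at equal dose, the question the study was built on. In the hippocampus at 1 × 10 Gy, 2 of 17 members were called, with 22.2% of all genes. At 3 × 10 Gy 0 members and 0% of genes were called by edgeR, while 2 members (*Mgmt* and *Apex1*) and 783 genes had an unadjusted p under 0.05. Over both doses 1 of 17 members was called, with 23.3% of all genes. Against that background the members' share of calls was the lower, a difference between shares that was not tested. Their median difference was -0.11 at 1 × 10 Gy and -0.11 over both doses, against -0.01 and 0.00 for all tested genes.

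*Parp1* was higher after FLASH 1 × 10 Gy than after CONV 1 × 10 Gy by 0.39 (SE 0.13, adjusted p = 0.0262, edgeR), with the levels given above: FLASH mice at 106 to 128 CPM and CONV mice at 81.4 to 107. The ranges overlapped, with CONV mouse C within the FLASH range. Within slides the difference was 0.65 on slide 4 and 0.19 on slide 5. Without FLASH 1 × 10 Gy mouse A it was 0.20 (adjusted p = 0.461) and without CONV 1 × 10 Gy mouse B 0.67 (adjusted p = 0.151), the range over all fits without 1 mouse. Leaving out CONV 1 × 10 Gy mouse A (0.31, adjusted p = 0.151), CONV 1 × 10 Gy mouse C (0.37, adjusted p = 0.0598) or CTRL mouse C (0.37, adjusted p = 0.0602) also ended the call. With all mice the call held in 5 of 10 alternatives (adjusted p up to 0.617). At 3 × 10 Gy the difference was 0.05.

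*Mgmt* was lower after FLASH than after CONV. Its hippocampal level was 40.7, 39.4 and 36.7 CPM in FLASH 1 × 10 Gy mice A, B and C and 58.3, 45.3 and 39.9 in CONV 1 × 10 Gy mice. At the higher dose it was 41.9, 37.5 and 38.9 in FLASH 3 × 10 Gy mice and 47.2, 58.2 and 43.2 in CONV 3 × 10 Gy mice, and CTRL mice had 42.7, 44.0 and 58.5. All 6 FLASH mice lay below the 3 CTRL mice and below 5 of the 6 CONV mice. The share of all genes that separate so is not given here. The difference was -0.36 (SE 0.13, adjusted p = 0.0454, edgeR) at 1 × 10 Gy, -0.30 at 3 × 10 Gy (adjusted p = 0.589) and -0.33 (SE 0.09, adjusted p = 0.00872) over both doses. FLASH minus CONV was negative on 5 of 5 slides, between -0.64 and -0.09. The background share was lower in FLASH on 4 of the 5 slides. In units of the negative-probe mean *Mgmt* averaged 1.52 in FLASH and 1.71 in CONV mice at the lower dose, 1.48 in FLASH and 1.74 in CONV mice at the higher dose, and 1.61 in CTRL mice. Of the 10 neuron markers 8 were called higher in FLASH over both doses (median difference 0.52), and their part in the result was not tested.

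The call over both doses was lost without FLASH 1 × 10 Gy mouse A (adjusted p = 0.0707), CONV 1 × 10 Gy mouse B (0.0694) or CONV 3 × 10 Gy mouse B (0.0532). It held in 5 of 10 alternatives, and was lost among others with the background share as a covariate (-0.19, adjusted p = 0.793). The call at 1 × 10 Gy was lost without any of 9 of the 15 mice (adjusted p up to 0.376) and kept without CTRL mouse B, FLASH 3 × 10 Gy mouse B or C, or any CONV 3 × 10 Gy mouse. With all mice it held in 3 of 10 alternatives (adjusted p up to 0.846).

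The *Mgmt* difference between FLASH and CONV was called in CA3 as well, the only member called in a subregion. There it measured 25.7, 40.1 and 26.6 CPM in FLASH 1 × 10 Gy mice A, B and C and 56.2, 65.7 and 44.3 in CONV 1 × 10 Gy mice. At the higher dose it measured 45.9, 37.9 and 29.3 in FLASH 3 × 10 Gy mice and 48.7, 65.1 and 38.3 in CONV 3 × 10 Gy mice, and CTRL mice had 43.8, 44.1 and 63.9. At 1 × 10 Gy the groups did not overlap, and the share of all genes without overlap is not given here. Called in that comparison were 8.63% of all genes. The difference was -1.12 (SE 0.29, adjusted p = 0.00509, edgeR) at 1 × 10 Gy and -0.75 (SE 0.17, adjusted p = 0.00111) over both doses, where 12.3% of all genes were called. It was negative on 5 of 5 slides (-1.13 to -0.08), and the background share was lower in FLASH on 5 of 5.

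*Mgmt* was above the negative-probe limit in only 1 of 15 CA3 libraries, and its mean ratio to the negative probes there was 1.07 in FLASH 1 × 10 Gy mice and 1.73 in CONV 1 × 10 Gy mice. With the background share as covariate the differences were -0.51 at 1 × 10 Gy and -0.32 over both doses, neither called (adjusted p = 0.953 and 1.000). Each of the 2 CA3 calls held in 3 of 5 alternatives. Without FLASH 1 × 10 Gy mouse A both calls were lost (adjusted p = 0.252 and 0.0798), and without CONV 1 × 10 Gy mouse B that at 1 × 10 Gy (0.107). The summed neuron markers in CA3 were 3917 to 4302 CPM in FLASH 1 × 10 Gy and 2875 to 4772 in FLASH 3 × 10 Gy mice, against 1611 to 4288 in CONV 1 × 10 Gy and 2599 to 4405 in CONV 3 × 10 Gy mice, with 6 of 10 called higher over both doses. Their part in the result was not tested.

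Elsewhere no member was called between FLASH and CONV. None of the 17 was called in the cortex, where 0.0499% of all genes were called in at least 1 of the 3 comparisons. In DG 9.27% of genes were called, in CA3 13.2%, in CA1 1.19% and in SO 1.19%, and outside CA3 0 members in each. Cortical *Mgmt* differed by -0.09 over both doses (SE 0.13), and FLASH was the lower on 2 of 5 slides. The hippocampal difference less the cortical one was -0.22 (SE 0.15, adjusted p = 0.777, edgeR), so the regions were not shown to differ.

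A further 102 repair genes were listed by pathway, of which 101 were on the panel and 49 were tested. After FLASH 1 × 10 Gy 3 of the 49 were called in the hippocampus against CTRL: *Gtf2h5*, a small subunit of the repair and transcription factor TFIIH (0.60, SE 0.18, adjusted p = 0.0235, edgeR), the recombination gene *Rad51d* (-0.53, SE 0.17, adjusted p = 0.0396) and the glycosylase *Neil2* (-0.55, SE 0.18, adjusted p = 0.0446). That is 6.12%, against 11.5% of all genes. No other comparison with CTRL called any of the 49 in the hippocampal or cortical sums. Between FLASH and CONV at 1 × 10 Gy 7 were called in the hippocampus, 1 higher and 6 lower (14.3%, against 22.2% of all genes). Over both doses 9 of 49 were called between FLASH and CONV, 1 higher and 8 lower. The 4 with the smallest p were *Poll*, a gap-filling polymerase of end joining (-0.43), *Gtf2h5* (0.39), *Rpa1*, the large subunit of the single-strand DNA binding complex (-0.39), and *Pole*, the catalytic subunit of a replicative polymerase (-0.33). *Poll* lay at 30.8 to 41.4 CPM in the 6 FLASH mice and 42.3 to 55.1 in the 6 CONV mice, with no overlap. The share of all genes without overlap is not given here. *Rpa1* lay at 119 to 167 CPM in FLASH and 98.4 to 227 in CONV mice, and on slide 3 it ran the other way, with 119 in the FLASH mouse and 100.2 and 98.4 in the CONV mice. *Pole* (30.3 to 43.2 CPM in FLASH and 28.0 to 61.7 in CONV mice) and *Gtf2h5* (89.0 to 115 in FLASH and 67.7 to 91.7 in CONV mice) overlapped too. The share of the 49 called, 18.4%, was below the 23.3% of all genes. Within subregions 1 of the 49 was called against CTRL, *Rpa1* in DG after FLASH 1 × 10 Gy (-0.63, adjusted p = 0.0451, edgeR). Between FLASH and CONV at 1 × 10 Gy *Rpa1* was called lower in DG (-0.69), CA3 (-0.73) and SO (-0.74). Over both doses *Rpa1* (-0.48) and *Poll* (-0.71) were called lower in CA3. Genes called in at least 1 FLASH minus CONV comparison made up 9.27% in DG, 13.2% in CA3 and 1.19% in SO.

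The regions of the same mice were then compared, each with the mean of the other 4, with the mouse as a block. In DG 4 of 17 members were called, all higher, with 51.4% of all genes. In CA3 2 of 17 were called, 1 higher and 1 lower (36.7% of all genes), in CA1 none (12.6%; 1 member at unadjusted p under 0.05), in SO 1 (7.2%) and in the cortex 2, both lower (27.6%). The members' share was below that of all genes in each region, though in SO 1 of 17 lay near the 7.2%. These differences between shares were not tested. Their median differences lay between -0.04 and 0.01.

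*Trp53bp1* was highest in DG. It averaged 96.2 ± 13.3 CPM in DG (range 72.8 to 119), against 75.1 ± 18.5 in SO, 71.4 ± 17.2 in CA1, 67.4 ± 5.14 in the cortex and 67.1 ± 12.6 in CA3 (SD, n = 15, 13 in SO). The ranges overlapped, while within mice DG exceeded the other regions in 13 of 15. The difference was 0.46 (SE 0.06, adjusted p = 3.55e-12, edgeR). *Trp53bp1* was lower in CA3 by 0.18 (12 of 15 mice) and in the cortex by 0.19 (13 of 15), both called. The cortical call held in 7 of 9 alternatives (adjusted p up to 0.612), and was lost among others with negative probes subtracted (-0.24, adjusted p = 0.137). The CA3 call held in 8 of 9 (adjusted p up to 0.261). SO, CA1, the cortex and CA3 overlapped in their ranges and were not tested against one another.

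*Parp1* was lowest in the cortex. It averaged 73.6 ± 9.23 CPM in the cortex (range 60.9 to 93.1), against 105 ± 23.4 in SO, 105 ± 22.5 in CA1 and 103 ± 16.1 in CA3 (SD, n = 15, 13 in SO). DG averaged 103, with a range of 65.4 to 129. The hippocampal means lay within 103 to 105, their ranges reached into that of the cortex, and the cortex was below their mean in 14 of 15 mice. The difference was -0.53 (SE 0.06, adjusted p = 5.86e-16, edgeR). It was -0.57 in CTRL mice alone and -0.52 in irradiated mice alone, both called. In the same contrast 7 of 10 neuron, 5 of 6 tested astrocyte and 6 of 8 oligodendrocyte markers were called higher in the cortex, and 1 of 8 oligodendrocyte and 1 of 4 dividing-cell markers lower. Their part in the result was not tested.

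**Figure D4:**
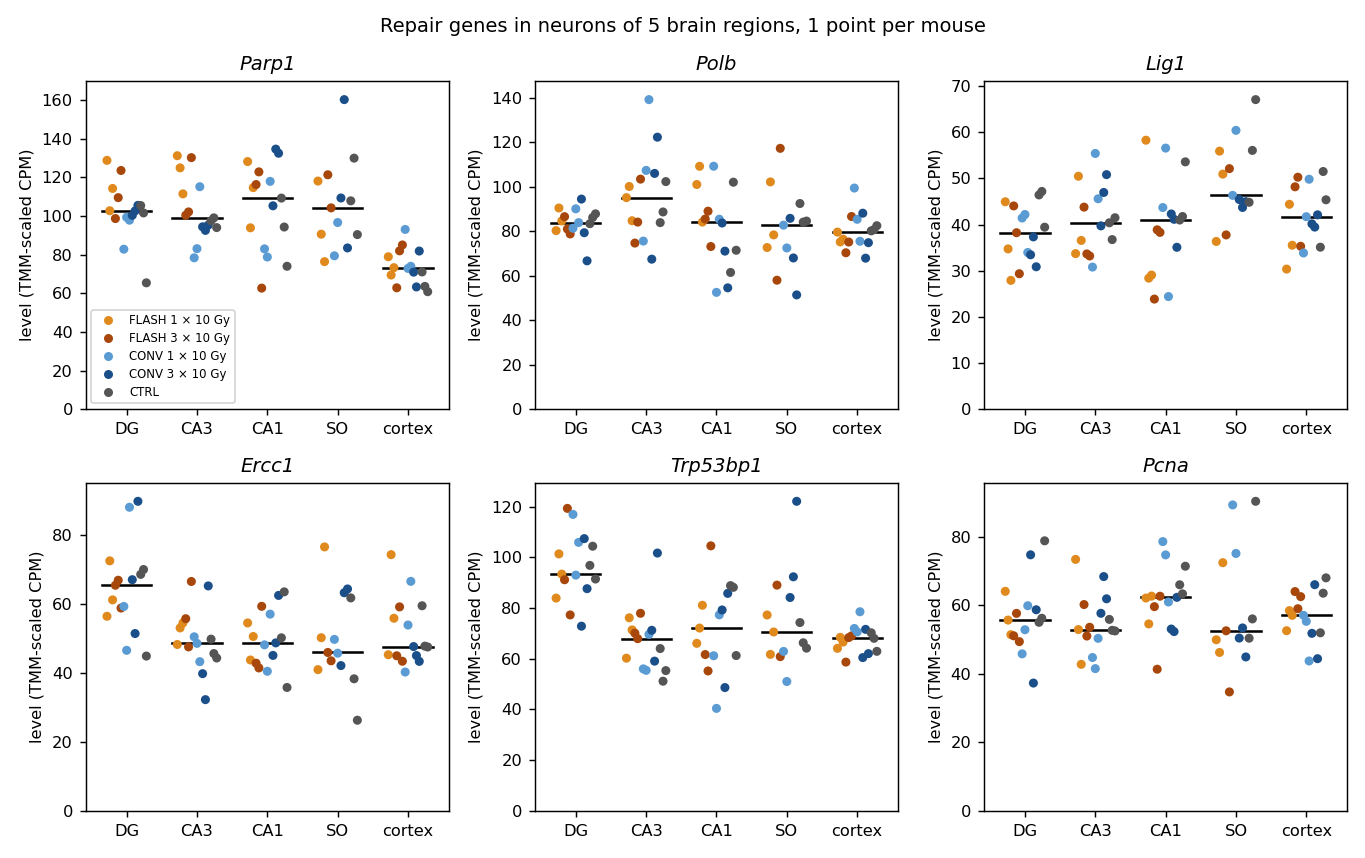
TMM-scaled CPM of 6 repair genes in neurons of each region, 1 point per mouse coloured by treatment, with the median as a line (n = 15, 13 in SO). *Parp1* was low in the cortex (60.9 to 93.1 CPM) and *Trp53bp1* and *Ercc1* high in DG.

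The called nucleotide excision genes were *Ercc1* and *Xpa*, both higher in DG. *Ercc1* averaged 64.4 ± 12.9 CPM in DG (44.8 to 89.6) and 49.5 to 51.6 in the other regions, and was higher in DG in 14 of 15 mice (0.34, SE 0.06, adjusted p = 1.41e-06, edgeR). *Xpa* was 45.2 ± 10.1 CPM in DG, against 45.1 ± 12.6 in SO and 37.2 to 39.3 in the other 3 regions (0.21 for DG, SE 0.08, adjusted p = 0.0184, 12 of 15 mice). Of the base excision genes *Apex1* was higher in DG (0.17, adjusted p = 0.0420), *Polb* in CA3, with 95.7 ± 19.0 CPM against 79.9 to 83.7 elsewhere (0.17, SE 0.06, adjusted p = 0.0204, 13 of 15 mice), and *Lig1* in SO, with 49.4 ± 8.83 CPM against 38.1 to 41.5 elsewhere (0.30, SE 0.10, adjusted p = 0.0368, 11 of 13 mice). *Lig1* was above the limit in only 3 of 13 SO libraries. The *Lig1* call held in 3 of 8 alternatives. It was lost with upper quartile scaling (adjusted p = 0.0598), with no gene filter (0.0636), with negative probes subtracted (0.0817), in irradiated mice only (0.137) and in CTRL mice only (0.698). The *Apex1* call held in 5 of 8 and was lost with no gene filter (0.0593), in irradiated mice only (0.121) and in CTRL mice only (0.393). That of *Polb* held in 7 of 9 and was lost with DESeq2 size factors (0.0557) and in CTRL mice only (0.06, adjusted p = 0.847). Of the DG calls in nucleotide excision repair, that of *Xpa* held in 6 of 8 (adjusted p up to 0.349). That of *Ercc1* held in 8 of 9 (adjusted p up to 0.0691). The markers moved in these contrasts too. In DG 6 of 10 neuron markers were called lower and 2 higher, 6 of 8 oligodendrocyte markers lower and 2 higher, and 2 of 4 dividing-cell markers higher and 1 lower. In CA3 8 of 10 neuron and 7 of 8 oligodendrocyte markers were called higher and none of either lower, and in SO 5 of 10 neuron markers and 1 of 8 oligodendrocyte markers were called lower and none of either higher. Their part in the differences between regions was not tested.

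*Mgmt*, *Ddb1*, *Pcna*, *Xrcc1*, *Neil1*, both mismatch repair genes, *Rad50*, *Prkdc* and *Xrcc5* were not called in any region. *Rad50*, for example, averaged 53.1 to 58.2 CPM and *Ddb1* 57.5 to 63.9 CPM over the 5 regions, with overlapping ranges. Among the 49 other repair genes 13 were called in DG, led by *Ccnh*, a cyclin of TFIIH (0.40), and 13 in CA3, led by *Cdc25b*, a phosphatase that starts mitosis (-0.58). *Cdc25b* was higher in CA1 (0.40) and SO (0.48). In the cortex 4 were called, all lower, led by the nucleotide excision gene *Gtf2h2* (-0.26, SE 0.06, adjusted p = 0.000204, edgeR). Next by p was *Trp53*, which encodes p53 (-0.26, SE 0.07, adjusted p = 0.00175, edgeR).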

How the data were processed

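The authors deposited GeoMx counts per probe, whole numbers from the GeoMx NGS Pipeline 2.0.0 (reads with the same molecular identifier taken once), not scaled or filtered. Probes of a gene were summed. By these of the study's limits (1000 raw reads, 80% trimmed, 80% stitched, 75% aligned, 50% saturation, negative-probe geometric mean 1, 5% of genes above the limit) 225 of 285 libraries were kept, 87 of neurons. Its limits on nuclei, segment area and outlying probes were not applied here. Groups, mice and slides came from the labels, and mice were the replicates.

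Neuron counts were summed per mouse and tested by edgeR 4.0.16 (quasi-likelihood, robust, 2-sided, TMM) in R 4.3.3 with slide as factor, all 5 groups in 1 fit, over 10020 genes with Benjamini-Hochberg adjustment. Regions were compared with the mouse as block, a pairing that comes from the same animal. The fits were tested on simulated data.

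Members and lists were chosen with earlier results of these data known. Described in full were members called in a treatment comparison, those with the smallest p of their class over all irradiated mice, the 3 largest called changes per region and the most often detected of each class. Of other repair genes at most 4 called per comparison were named, by smallest p. *Apex1* at 3 × 10 Gy was named after its values were seen.

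Alternatives were no slide term, slide as random block (limma 3.58.1), a mixed model of single libraries as in the study (lmerTest 3.1.3), DESeq2 1.42.0, its size factors, upper quartile scaling, negative probes subtracted, background share as covariate, no or a strict gene filter (20% of neuron libraries), and each mouse left out. For regions they were the mouse as random block, no block, CTRL mice only and irradiated mice only.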

Additional observations from a re-analysis of the deposited data

Results flagged for a closer look

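In the area left after the stained segments were taken, 4 members were above the negative-probe limit in at least 20% of libraries. Those singled out here are the 2 of them that were above it in over 50% and had a higher mean in irradiated than in CTRL mice. *Prkdc* was above the negative-probe limit in 81.2% of 101 such libraries, with a mean ratio to the negative probes of 1.69 in 12 irradiated mice (1.54 to 1.80) and 1.63 in 3 CTRL mice (1.58 to 1.71). *Pcna* was above it in 56.4%, with mean ratios of 1.55 in irradiated mice (1.38 to 1.71) and 1.53 in CTRL mice (1.52 to 1.54). *Parp1*, above the limit in 37.6%, had mean ratios of 1.480 in irradiated mice (1.39 to 1.58) and 1.396 in CTRL mice (1.35 to 1.45), a wider gap than either. *Rad50*, above it in 82.2%, had 1.68 in irradiated mice and 1.72 in CTRL mice. The ranges overlapped in all 4, and these differences were not tested. Libraries of the remaining area had a median background share of 94.0% and a median of 3.08e+06 counts, against 56.7% and 714453 in neuron libraries. Shares above the limit are thus not comparable between these segment types. In neuron libraries *Prkdc* was above the limit in 51.7%, at a mean ratio of 1.87 in irradiated mice. No group held 4 to 10 mice, so single mice were not screened for large gaps.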

How the results depend on the processing

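With 3 mice a group, FLASH 1 × 10 Gy and CTRL together on 1 slide only, and members near the background, calls between treatments moved with the processing. The 2 hippocampal calls against CTRL became 0 with no slide term, with DESeq2, with negative probes subtracted, with the background share as covariate or with slide as a random block, 1 with the strict gene filter or the mixed model, and 0 to 2 without single mice. All genes called in the FLASH 1 × 10 Gy comparison numbered 1150, and 0 with no slide term, with the covariate, with slide as random block or without CTRL mouse C, 443 by DESeq2 and 421 by the mixed model. The 2 members called between FLASH and CONV became 0 with no slide term, DESeq2, the covariate or slide as random block, 1 with negative probes subtracted or the mixed model, and 0 to 5 without single mice (5 without FLASH 3 × 10 Gy mouse C or CONV 3 × 10 Gy mouse C). Over both doses all genes called numbered 2338, 0 with no slide term or slide as random block, 2 with the covariate, 835 by DESeq2, 667 by the mixed model and 1541 with negative probes subtracted. Counts of 0 in the cortex and in subregions became at most 1 without single mice (0 to 1), and the count of 0 between hippocampus and cortex stayed 0. The 7 members called between regions became 4 with the strict filter, 2 in CTRL mice only and 4 in irradiated mice only, both with fewer animals. With the limit at 1 geometric standard deviation 21 members, not 7, were detected in at least 50% of libraries. DESeq2 gave no adjusted p for *Neil1* against CTRL or for *Mgmt* in CA3, and the strict filter left out *Neil1*. SO could not be fitted without CTRL mouse C.

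Without the replicate block (the mouse), 7 members were again called between regions, and no call changed. Over all irradiated mice against CTRL, signs turned without CTRL mouse C and values spanned -0.090 to 0.31 for cortical *Parp1*, -0.41 to 0.0048 for cortical *Msh6* and -0.056 to 0.21 for hippocampal *Prkdc* without single mice, none of them called. Causes were not tested.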

Other observations

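Members below the detection filter were also fitted with no gene filter. *Lig4*, the ligase of end joining, was then called lower after FLASH 1 × 10 Gy than in CTRL hippocampus (-0.86, SE 0.22, adjusted p = 0.0135, edgeR), with 22.7, 19.2 and 26.4 CPM in FLASH 1 × 10 Gy mice and 28.5, 30.8 and 41.7 in CTRL mice, though it was above the limit in 0 of 87 neuron libraries. *Ddb2*, the sensor of bulky lesions, was called lower after FLASH than after CONV in CA3 over both doses (-0.64, SE 0.19, adjusted p = 0.0241) with 0 of 15 CA3 libraries above the limit, and higher in DG (0.19). *Brca2* was called higher in DG (0.24, adjusted p = 0.0245).

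*Atm*, the kinase that signals double-strand breaks, was at 4.41 times the negative-probe mean in the DG library of CONV 1 × 10 Gy mouse A (80 counts), 3.44 times its own median over the neuron libraries. The hippocampal sum of that mouse held 74.99 CPM, and those of the other 14 mice 27.6 to 41.6.

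*Polb*, detected in 80 of 87 neuron libraries, was above the limit in 15.8% of the 101 libraries of the remaining area. The median background share was 56.7% in the former and 94.0% in the latter. In 1 cortical vessel library of CONV 1 × 10 Gy mouse A, with 29126 gene counts in all, *Parp1* had 34 counts, 30.8 times the negative-probe mean; its median over the 7 kept vessel libraries was 1.74.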
